A study of Mus musculus with 71 samples.

Results

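Voltage-gated ion channel subunits are described here in the hippocampal translatome of mice on normal chow or on a high fat and sugar diet, at rest and after a memory task. The members were protein-coding genes chosen by symbol (Kcna, Kcnb, Kcnc, Kcnd, Kcnf, Kcng, Kcnh, Kcnq, Kcns and Kcnv genes, the Hcn genes, the Scn alpha and beta subunits and the Cacna1 genes) with at least 10 counts in total. All 68 genes that matched by symbol reached that count, of 30141 genes tested and 57010 in the table. A mean of at least 1 CPM (counts scaled to the total count of each library) was reached by 54 of them.

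Voltage-gated channels open or close with the membrane potential and set when and how fast a neuron fires. Sodium channels (alpha pore subunits with beta partners) carry the upstroke of the action potential, potassium channels of the Kv families repolarise the membrane and limit repetitive firing, HCN channels carry a depolarising current at rest, and calcium channels couple firing to transmitter release and gene expression. The subunits encoded by Kcnf, Kcng, Kcns and Kcnv genes are called silent because they form no channel alone and change the properties of pore subunits of other families. In the hippocampus these channels are known for shaping pyramidal cell excitability and fast spiking of interneurons.

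All mice were wild-type C57BL/6J males, and 3 diets were given from the age of 3 weeks for 12 weeks: normal chow without restriction (NC ad lib), a high fat and sugar diet without restriction (HFS ad lib), and the latter with food offered from zt11 to zt1 alone in the last 4 weeks (HFS TRF, time-restricted feeding). On each diet, mice were taken from the home cage (HC) at zt3 or zt15, where zt counts hours after lights on, or 1 h or 12 h after the training session of an object recognition memory task, in which they explored a pair of identical objects (ORM+1 h, ORM+12 h). The 12 groups held 6 mice each, except 5 at HC zt15 on HFS TRF, which gives 71 mice. Mice were housed 6 to a cage, and whether a group was 1 cage is not stated. Messenger RNA was pulled down with ribosomes carrying phosphorylated S6, a mark of recently active cells (pS6-TRAP), so that levels are weighted towards such cells, and fewer cells of a type and less RNA per cell cannot be told apart.

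Total counts per mouse ranged from 34698914 to 62758570, with a median of 53999489. Neuronal markers were abundant in every mouse, and the summed level of 5 endothelial markers lay between 0.672 and 10.2 CPM. Markers of neighbouring tissue differed between mice: 8 choroid plexus markers summed to between 98.0 and 18762 CPM and 6 thalamus markers to between 46.4 and 452 CPM. All zt3 and ORM+1 h mice belong to a first experiment (36 mice) and all zt15 and ORM+12 h mice to a second (35 mice).

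The promoters of Kcng1, Cacna1h and Kcnc4 are shown first, as examples with and without GC boxes among the members that were higher 12 h after training on HFS TRF; no result rests on them. Each window is the 250 bases before the start of the canonical transcript in GRCm39, written 5′ to 3′ on the strand of the gene: Kcng1 at chr2:168123065-168123314 on the minus strand, Cacna1h at chr17:25652765-25653014 on the minus strand and Kcnc4 at chr3:107367782-107368031 on the minus strand. Capitals mark the GC box GGGCGG on either strand, which reads CCGCCC on the other.
Kcng1: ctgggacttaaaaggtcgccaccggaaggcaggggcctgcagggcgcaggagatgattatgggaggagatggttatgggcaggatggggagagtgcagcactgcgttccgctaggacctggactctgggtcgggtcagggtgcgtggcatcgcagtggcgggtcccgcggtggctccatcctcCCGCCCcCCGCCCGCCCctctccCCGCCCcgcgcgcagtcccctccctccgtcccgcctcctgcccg
Cacna1h: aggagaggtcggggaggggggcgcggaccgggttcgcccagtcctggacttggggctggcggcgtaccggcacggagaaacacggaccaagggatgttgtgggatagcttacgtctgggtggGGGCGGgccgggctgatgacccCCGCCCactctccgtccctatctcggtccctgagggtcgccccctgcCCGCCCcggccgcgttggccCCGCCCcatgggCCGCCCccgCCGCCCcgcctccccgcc
Kcnc4: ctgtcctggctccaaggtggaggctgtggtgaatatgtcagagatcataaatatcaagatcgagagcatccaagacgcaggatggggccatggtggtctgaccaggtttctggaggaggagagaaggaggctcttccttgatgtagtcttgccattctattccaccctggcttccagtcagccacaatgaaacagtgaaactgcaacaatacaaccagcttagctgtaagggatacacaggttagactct
Kcng1 and Cacna1h hold several GC boxes and Kcnc4 holds no match. Over all members the GC box stood in 39 of 68 windows (57.4%), against 36.3% of 21770 protein-coding genes. The E-box CACGTG stood in 6 of 68 (8.82%) against 6.26%, and the cAMP response element TGACGTCA in 0 of 68 against 1.70%. Among the 12 members higher 12 h after training on HFS TRF, 6 held a GC box and 0 an E-box. These matches describe letters in a window and say nothing of binding.

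The level of the members was compared per kb of exon, as CPM per kb averaged over 71 mice. Among the 4 beta subunits of sodium channels, Scn2b was at 59.8 CPM per kb and Scn4b lowest at 6.54. Among the alpha subunits, Scn8a (17.9 CPM per kb) and Scn2a (10.1), the main sodium channels of excitatory neurons, were highest. The muscle and sensory neuron channels Scn4a, Scn10a and Scn11a were at or under 3 counts in 45, 68 and 58 of 71 mice.

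Among pore subunits of Kv1 to Kv4, Kcnc1 of the fast Kv3 family reached 29.2 CPM per kb. Hcn2 was at 28.5 CPM per kb, while Hcn4 was at 0.280. Kcnf1 (13.9) and Kcng1 (5.68) led the silent subunits, Kcnh3 (11.3) and Kcnh2 (6.71) the EAG, ERG and ELK subunits, and Cacna1e (8.51) and Cacna1a (7.21) the calcium channel pore subunits. Kcnq5, a subunit of M-current channels, which hold back repetitive firing, came second in its class at 14.0. The lowest of their classes were Kcnh8 at 0.044 CPM per kb, Kcnv2 at 0.018, Kcnq1 at 0.015, Cacna1f at 0.0039, Scn10a at 0.00079 and Kcna7 at 0.00076, and all but Kcnh8 were at or under 3 counts in most mice.

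**Figure D1:**
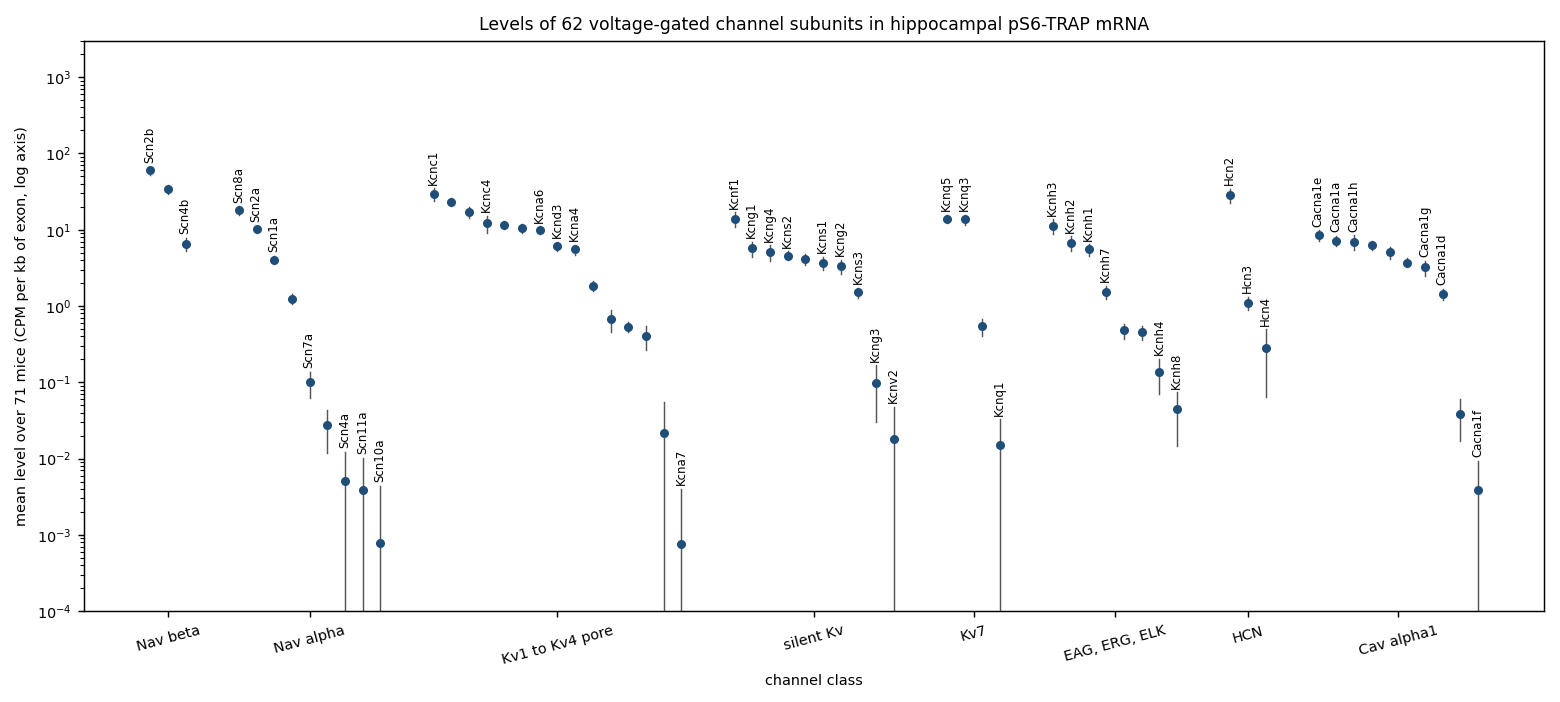
Mean level of 62 of the 68 members over 71 mice in CPM per kb of exon (log axis), by channel class; points are means and lines the SD, which run to the foot of the axis where the SD exceeds the mean. Members named in the text carry their symbol; Kcna7 is lowest, at 0.00076 CPM per kb.

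Between mice of a group, the 54 members with a mean of at least 1 CPM had a median SD of 0.198 on the log2 scale, against 0.180 for the 14699 genes at that level. Hcn4, the pacemaker channel that thalamic neurons also express, varied most (SD 0.712), and its CPM ran from 0.641 to 7.39 within HFS ad lib HC zt15 alone. With the 12 group means taken out, its log level followed that of the thalamus markers over 71 mice from 2 experiments with r = 0.88. The same r was 0.52 for the T-type channel Cacna1g and 0.55 for Scn4b, and with the choroid plexus markers it was 0.60 for Kcnh2 and 0.46 for the EAG channel Kcnh1. Whether these tissues carry the spread was not tested.

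The first comparison asks which channels changed 1 h after training. A response in trained mice was seen in the immediate early genes, of which 9 of 9 rose on each diet. The comparison mice came from the home cage, so training cannot be told apart from handling or transfer to the arena. On NC ad lib 1 of 68 members changed, the silent subunit Kcns1, which fell, against 5.73% of all genes called and 1.7% called lower, and DESeq2 called 5. On HFS ad lib and HFS TRF 0 members were called, against 1.23% and 2.87% of all genes (edgeR quasi-likelihood test, Benjamini-Hochberg adjusted p under 0.05), and DESeq2 called 1 and 0. At an unadjusted p under 0.05 there were 13 members on NC ad lib, all lower, 6 on HFS ad lib and 4 on HFS TRF. Here and below, shares of all genes called are by edgeR. Counts by DESeq2 and counts at an unadjusted p stand without a share of all genes at their own test or threshold. They are no result about the members as a group.

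Kcns1 (ENSMUSG00000040164, chr2:164005539-164013227 on the minus strand of GRCm39) lay between 11.3 and 14.9 CPM in HC zt3 mice on NC ad lib, with a median of 12.6, and between 6.79 and 10.1 CPM 1 h after training, with a median of 8.66. The groups did not overlap. Its mean went from 12.7 ± 1.23 to 8.61 ± 1.09 CPM (SD, n = 6), a log2 fold change of -0.56 (SE 0.12), adjusted p = 0.00149 by the edgeR quasi-likelihood test with Benjamini-Hochberg adjustment.

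On the other diets the groups overlapped and Kcns1 was not called: the log2 fold change was -0.32 on HFS ad lib (adjusted p = 0.234) and -0.32 on HFS TRF (adjusted p = 0.178) by the same edgeR test. Whether the change differs between diets was not shown, since no interaction was called. Kcna4, an inactivating A-type subunit, had a log2 fold change of -0.34 on HFS ad lib (27.9 ± 2.56 against 35.2 ± 5.43 CPM, n = 6) and did not pass the edgeR test (adjusted p = 0.0735). The silent subunit Kcnf1 had a log2 fold change of 0.43 on HFS ad lib (77.6 ± 7.55 against 57.4 ± 9.11 CPM, n = 6, adjusted p = 0.174 by edgeR) and of 0.36 on HFS TRF, and did not pass on either diet. The sodium-sensing channel Scn7a (-0.89 on HFS ad lib) and Kcnh7 (0.20 on NC ad lib) did not pass either, and Cacna1f on NC ad lib and Kcna7 on HFS TRF had one group all at 0, near the floor of detection. Kcnh3, named after its values were seen, had -0.37 on NC ad lib with no overlap (69.9 ± 6.62 against 90.03 ± 12.5 CPM, n = 6) and did not pass (adjusted p = 0.0849 by edgeR).

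Over the 54 members with a mean of at least 1 CPM, the median log2 fold change at 1 h was -0.13 on NC ad lib, with 9 of 54 above 0, where 50.4% of all genes at that level were above 0. It was -0.02 on HFS ad lib and 0.02 on HFS TRF. On each diet the members were read in the same mice, so their signs are not independent of each other. Astrocyte markers moved at the same time, from a median of 1352 CPM at HC zt3 to 3280 CPM at ORM+1 h on NC ad lib. Kcnj10, a channel of astrocytes, rose on NC ad lib (log2 fold change 1.22) and also on HFS TRF (0.98). The part of astrocytes in the members' median was not tested.

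**Figure D2:**
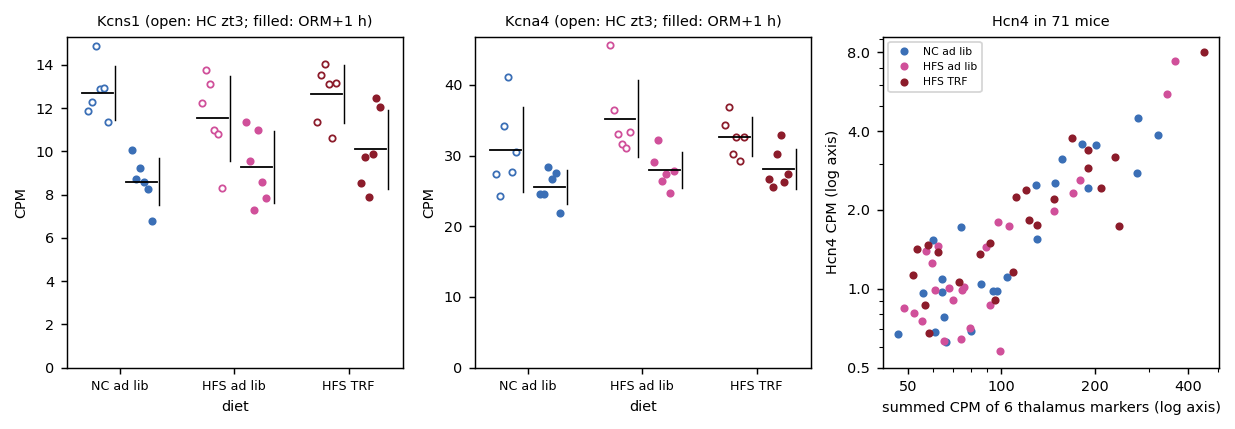
Left and middle, CPM of Kcns1 and Kcna4 in each mouse at HC zt3 (open) and ORM+1 h (filled) on 3 diets, with the mean (bar) and SD (line); right, Hcn4 CPM against the summed CPM of 6 thalamus markers in 71 mice, both on log axes. Kcns1 shows no overlap on NC ad lib, and Hcn4 rises with the thalamus markers.

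Of the related lists at 1 h on NC ad lib, beside the 5.73% of all genes called, 1 of 35 auxiliary subunits rose, Kcne5 (log2 fold change 1.49), and 3 fell: Kcnab2, a beta subunit of Kv1 channels (-0.29), and Fgf13 and Fgf14, which bind sodium channels (-0.24 and -0.27). Among 38 other potassium channels Kcnj10 (1.22) and Kcnj16 (1.63), inward rectifiers of astrocytes, and Kcnn3 (0.61) rose and Kcnk15 fell. Kcnk15 had -4.89 with an SE of 1.43, wider than for the others, and its counts are not given. On HFS ad lib 0 genes of either list were called. On HFS TRF, beside 2.87% of all genes called, 2 of 35 and 2 of 38 rose: Kcne5, Ank2, Kcnj10 and Kcnn3.

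The second comparison asks which channels differed 12 h after training from home cage mice at zt15. On HFS TRF 12 of 68 members rose and 0 fell by edgeR, against 2.46% of all genes called and 1.57% called higher. DESeq2 called 20 members, and its share of all genes is not given. The 8 described here were the fast Kv3 subunit Kcnc4, the Shaker-type subunit Kcna6, the A-type subunit Kcnd3, the silent subunits Kcng1 and Kcng2, Kcnh3, Hcn3 and the T-type calcium channel Cacna1h. On NC ad lib and HFS ad lib 0 members were called by edgeR, against 0.209% and 0.179% of all genes, and 1 and 1 by DESeq2. At an unadjusted p under 0.05 there were 18 members on NC ad lib, 8 on HFS ad lib and 36 on HFS TRF, of which 35 of the last were higher. The share of all genes at that unadjusted threshold is not given beside them.

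Kcnc4 (ENSMUSG00000027895, chr3:107345603-107367781 on the minus strand) read 55.3, 60.5, 56.3, 49.2 and 59.3 CPM in the 5 home cage mice on HFS TRF and 79.0 to 99.0 CPM (median 85.5) in the 6 trained ones, with no overlap. The mean rose 1.56-fold, from 56.1 ± 4.42 to 87.6 ± 7.94 CPM (SD), a log2 fold change of 0.64 (SE 0.14, Benjamini-Hochberg adjusted p = 0.0125 by edgeR). On NC ad lib Kcnc4 ran from 43.6 to 101 CPM at HC zt15 and from 53.8 to 87.5 CPM after training, and on HFS ad lib from 49.1 to 100.4 CPM and from 64.2 to 84.1 CPM, so that the groups overlapped on both.

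Kcnh3, an ELK channel of forebrain neurons, read 75.5, 76.5, 103, 69.5 and 80.9 CPM at HC zt15 and 111 to 136 CPM (median 129) after training. The silent subunit Kcng1 read 25.8, 26.0, 29.5, 23.4 and 27.7 CPM against 31.0 to 45.1 CPM (median 42.1). Neither overlapped between the groups, and the means rose 1.55-fold and 1.52-fold in that order. Their log2 fold changes were 0.63 (SE 0.14, adjusted p = 0.0157 by edgeR) and 0.60 (SE 0.14, adjusted p = 0.0162 by edgeR).

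The remaining 5 of these 8 overlapped between groups. Cacna1h read 68.3, 72.8, 94.9, 60.3 and 77.1 CPM against 93.5 to 110 CPM (median 104), and its groups overlapped through HC zt15 replicate 3 alone. Kcng2 overlapped through the same mouse, with 33.5, 38.3, 47.9, 36.4 and 37.1 CPM against 47.7 to 52.7 CPM (median 50.5).

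Exons of Hcn3 overlap those of Pklr on the other strand, and in the same way Kcng2 overlaps Slc66a2 and Kcna6 overlaps Gm26673. On the log2 scale Hcn3 had a fold change of 0.56 (7.04 ± 1.24 against 4.77 ± 0.549 CPM), Cacna1h of 0.45, Kcng2 of 0.39, Kcnd3 of 0.35 and Kcna6 of 0.34. Their adjusted p by the edgeR quasi-likelihood test with Benjamini-Hochberg adjustment ran from 0.0224 for Kcng2 to 0.0489 for Kcnd3. Of 11 alternative fits, Kcnd3 was called in 5, Kcna6 in 6 and Hcn3 in 8; none of them was called in a model of only the groups compared, with the GC offset or with the choroid plexus covariate. Kcns1, which did not pass, also showed no overlap (log2 fold change 0.42, adjusted p = 0.0604 by edgeR).

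By class, 5 of 17 Kv1 to Kv4 pore subunits, 2 of 10 silent subunits and 1 of 10 calcium channel pore subunits rose, and the remaining 4 came from other classes. Of the 10 sodium channel alpha subunits 0 were called by edgeR, with 2 at an unadjusted p under 0.05. With the called members included, 53 of 54 members with a mean of at least 1 CPM had a log2 fold change above 0 (98.1%). Of all genes at that level 47.1% did. The members were read in the same mice, so their signs are not independent of each other. The median was 0.29, against -0.02 for all genes. The exception was the calcium channel Cacna1d, at -0.02.

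**Figure D3:**
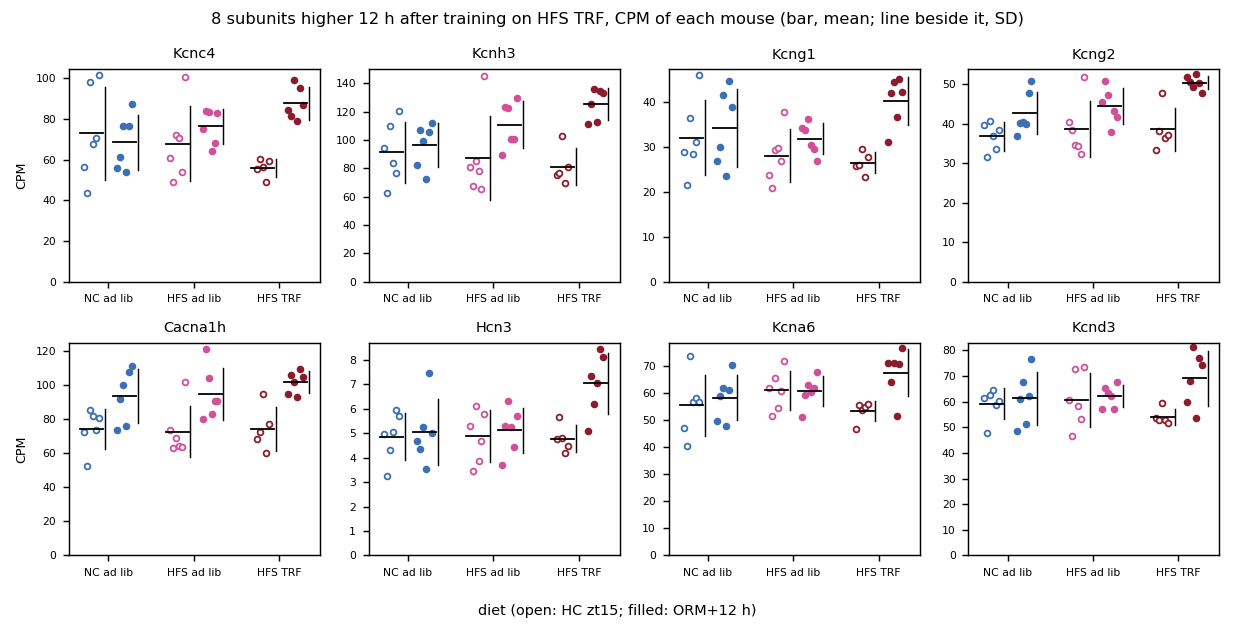
CPM of 8 of the 12 members that rose 12 h after training on HFS TRF, in each mouse at HC zt15 (open) and ORM+12 h (filled) on 3 diets, with the mean (bar) and SD (line). On HFS TRF Kcnc4, Kcnh3 and Kcng1 show no overlap, and on the other diets all 8 overlap. The 8 were picked for their rise on HFS TRF, so this is no result on diet. The share of all genes without overlap is not given.

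The calls rested on single mice. Without HC zt15 replicate 1 or replicate 4 on HFS TRF 0 members were called, and without ORM+12 h replicate 3, 5 or 6 there were 2, 5 and 6. Here and below, counts from fits with a mouse left out or another model stand without the share of all genes in that fit. A change in such a count is therefore no result about the members as a group. With any 1 mouse left out the members' median stayed between 0.25 and 0.33 and 51 to 54 of 54 members were above 0. With the choroid plexus markers as a covariate 4 members were called, Kcnc4, Kcnh3 and Kcng1 among them. Those markers summed to 7849, 470, 18762, 9086 and 411 CPM in the home cage mice and to 454, 355, 194, 226, 700 and 10564 CPM in the trained ones.

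Dentate gyrus markers were higher after training on HFS TRF, at 372 to 439 CPM against 264 to 344 CPM, with no overlap, as were myelinating oligodendrocyte markers, at 1139 to 1331 CPM against 854 to 1105 CPM. Across the 54 members the log2 fold change followed the GC content of the transcript (Spearman rho 0.48, over genes that share the same mice, against 0.17 for all genes), and with a GC offset 8 members were called. The part of either in the result was not tested.

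A difference between diets in this response was not shown. One of the HFS ad lib mice stood high: HC zt15 replicate 6 read 145 CPM for Kcnh3, 100.4 CPM for Kcnc4 and 102 CPM for Cacna1h, each the highest of its group. Without it, 4 members were called on HFS ad lib, among them Kcnh3 (log2 fold change 0.55), Cacna1h (0.51) and Kcng2 (0.30), and 1 without ORM+12 h replicate 4. Among NC ad lib mice, leaving out ORM+12 h replicate 1 gave 1 call.

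The interaction of HFS TRF against HFS ad lib ran from 0.06 for Cacna1h to 0.49 for Hcn3 on the log2 scale over the 12 risen members, with edgeR adjusted p from 0.208 to 1.00. Since they were picked for their rise on HFS TRF, which is a term of the interaction, its sign in them is no result. Over the 54 members with a mean of at least 1 CPM it was above 0 for 47 (87.0%), beside 54.0% of all genes at that level. These members hold the same HFS TRF term and were read in the same mice, so this share is no separate result on diet. By edgeR or DESeq2 0 of 68 members were called (0% of all genes by edgeR), with 17 at an unadjusted p under 0.05. The interaction of HFS ad lib against NC ad lib called 0 members, against 0.106% of all genes, with 8 at an unadjusted p under 0.05, and HFS TRF was not tested against NC ad lib.

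On the diets without a call, Kcnh7, an ERG subunit, came closest on NC ad lib: 22.3 to 30.8 CPM (median 26.9) 12 h after training against 15.1 to 21.8 CPM (median 18.7) at HC zt15, with no overlap (log2 fold change 0.51, adjusted p = 0.0606 by edgeR). Exons of Kcnh7 overlap those of Gca on the other strand. Cacna1h had log2 fold changes of 0.33 on NC ad lib and 0.39 on HFS ad lib (adjusted p = 0.158 and 0.105 by edgeR), beside the 0.45 on HFS TRF. Hcn4 had -1.32 on HFS ad lib (adjusted p = 0.217 by edgeR), with the spread given above, and Scn1a -0.21. Scn11a and Kcnv2 on NC ad lib were near the floor. The members' median was 0.12 on NC ad lib and 0.10 on HFS ad lib.

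Among the related lists on HFS TRF, beside the 1.57% of all genes called higher, 2 of 35 auxiliary subunits rose, Cacnb3 (0.39), a beta subunit of calcium channels, and Amigo1 (0.40), a membrane partner of potassium channels. Of 38 other potassium channels 7 rose, among them the inward rectifiers Kcnj11 (0.53), Kcnj4 (0.52) and Kcnj9 (0.46) and Kcnma1 (0.40) with its beta subunit Kcnmb4 (0.53), which form calcium-activated channels. Kcnk15, also among the 7, had 5.58 with an SE of 1.62, and its counts are not given. No gene of these lists fell. Without HC zt15 replicate 1 or replicate 4, 0 genes of either list were called, and without ORM+12 h replicate 3 there were 1 of 35 and 0 of 38. With the choroid plexus covariate 2 of 35 and 2 of 38 were called. Of the 9 immediate early genes 0 were called by edgeR, and 5 had an unadjusted p under 0.05, all lower.

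The third comparison sets home cage mice at zt15 against zt3. Since the times were run in different experiments, the hour and the experiment cannot be told apart, and the HC zt15 mice are those of the second comparison. By edgeR 2 members rose and 0 fell on NC ad lib, against 11.7% of all genes called and 5.18% called higher. On HFS ad lib 4 rose and 2 fell, against 10.4% (3.88% higher, 6.54% lower), and on HFS TRF 3 rose and 1 fell, against 14.2% (5.95% higher, 8.26% lower). Set against these shares, the counts are no result about the members as a group, and the genes are described singly.

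Of the 6 members that rose on at least 1 diet, 3 were silent subunits of the Kcng family. Kcng4 (ENSMUSG00000045246, chr8:120349688-120362762 on the minus strand) went from 19.4 to 23.90 CPM (median 21.9) at zt3 to 23.91, 32.0, 35.9, 28.1 and 31.0 CPM at zt15 on HFS TRF, with no overlap but nearly touching (log2 fold change 0.48, SE 0.14, adjusted p = 0.00898 by edgeR). It also rose on HFS ad lib (0.39), where the call was lost with protein-coding genes alone, with the thalamus covariate and with the GC offset. Without HC zt15 replicate 6 that call was lost too (0.30, adjusted p = 0.146 by edgeR). On NC ad lib Kcng4 had 0.36 without passing (adjusted p = 0.0550 by edgeR). Kcng2 rose on HFS ad lib (0.31, and 0.21 with adjusted p = 0.123 by edgeR without the same mouse). On HFS TRF it passed narrowly (0.26, adjusted p = 0.04995 by edgeR), in 7 of 11 alternative fits and in 3 of 11 with a mouse left out, down to 0.17 without HC zt15 replicate 3. It had 0.22 on NC ad lib (adjusted p = 0.101 by edgeR).

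Kcng3 was scarce, with 4 to 15 counts at zt3 and 24 to 42 at zt15 on HFS ad lib. Its level rose from 0.0692 to 0.276 CPM (median 0.213) at zt3 to 0.418 to 0.806 CPM (median 0.541) at zt15, with no overlap and a 3.25-fold higher mean (log2 fold change 1.69, SE 0.43, adjusted p = 0.00426 by edgeR). On NC ad lib and HFS TRF the log2 fold changes were 1.13 and 1.16 without a call (adjusted p = 0.0677 and 0.0611 by edgeR).

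Kcnc4 rose on NC ad lib (0.47, 73.0 ± 22.9 against 52.6 ± 8.09 CPM) and HFS ad lib (0.43, 67.8 ± 18.4 against 50.3 ± 4.19 CPM), and had 0.13 on HFS TRF. Without HC zt15 replicate 6 of HFS ad lib, the mouse that stood high above, Kcnc4 had 0.29 there and did not pass (adjusted p = 0.142 by edgeR), and without replicate 6 of NC ad lib it had 0.35 (adjusted p = 0.0662 by edgeR). Kcnh1, an EAG channel, rose on NC ad lib alone by call (0.33, 43.3 ± 4.67 against 34.5 ± 2.87 CPM). The call was lost with the choroid plexus covariate (0.26) and with protein-coding genes alone (0.30), and held in 4 of 12 fits with a mouse left out. Interactions were called for 0 members, so none of these is shown to differ between diets. The silent subunit Kcns2 had -0.26 on NC ad lib without passing (adjusted p = 0.0683 by edgeR).

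Kcna4 fell on both high fat diets. On HFS ad lib it went from 31.1 to 45.6 CPM (median 33.2) at zt3 to 23.3 to 32.0 CPM (median 24.9) at zt15, with overlap (log2 fold change -0.43, SE 0.10, adjusted p = 0.00138 by edgeR). The log2 fold change was -0.31 on HFS TRF (adjusted p = 0.0330 by edgeR) and -0.26 on NC ad lib without passing (adjusted p = 0.0810 by edgeR). Kcnq3, a subunit of M-current channels, fell on HFS ad lib (-0.35, 186 ± 26.3 against 237 ± 37.4 CPM). With a mouse left out, the call of Kcna4 on HFS TRF held in 6 of 11 fits and that of Kcnq3 in 7 of 12. With the GC offset neither of these calls held. Across the 54 members with a mean of at least 1 CPM, the log2 fold change followed the GC content of the transcript. Spearman rho was 0.47 on NC ad lib, 0.56 on HFS ad lib and 0.33 on HFS TRF, against 0.04, 0.23 and 0.07 for all genes. The part of GC content was not tested.

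**Figure D4:**
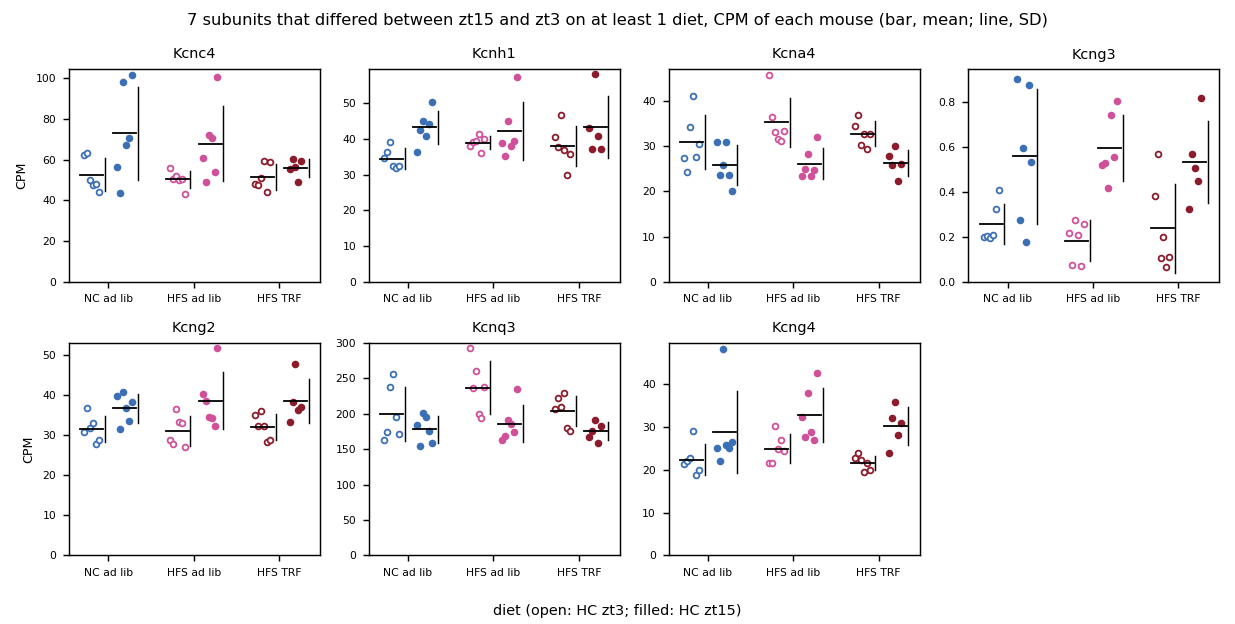
CPM of 7 of the 8 members called between zt15 and zt3 on at least 1 diet, in each home cage mouse at zt3 (open) and zt15 (filled) on 3 diets, with the mean (bar) and SD (line). Kcng3 on HFS ad lib and Kcng4 on HFS TRF show no overlap; Kcna4 and Kcnq3 are lower at zt15.

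The counts were small and moved with single mice. Within NC ad lib 0 members were called without HC zt15 replicate 6, 1 without HC zt3 replicate 1 or 5 or HC zt15 replicate 3, and 4 and 5 without HC zt15 replicate 1 and 4. On HFS ad lib 3 were called without HC zt3 replicate 6 and 4 without HC zt15 replicate 6. On HFS TRF 1 was called without HC zt15 replicate 5 and 2 without HC zt3 replicate 2 or 4 or HC zt15 replicate 2 or 4. Kcna4 and Kcng3 on HFS ad lib and Kcng4 on HFS TRF were called with any 1 mouse left out.

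**Figure D5:**
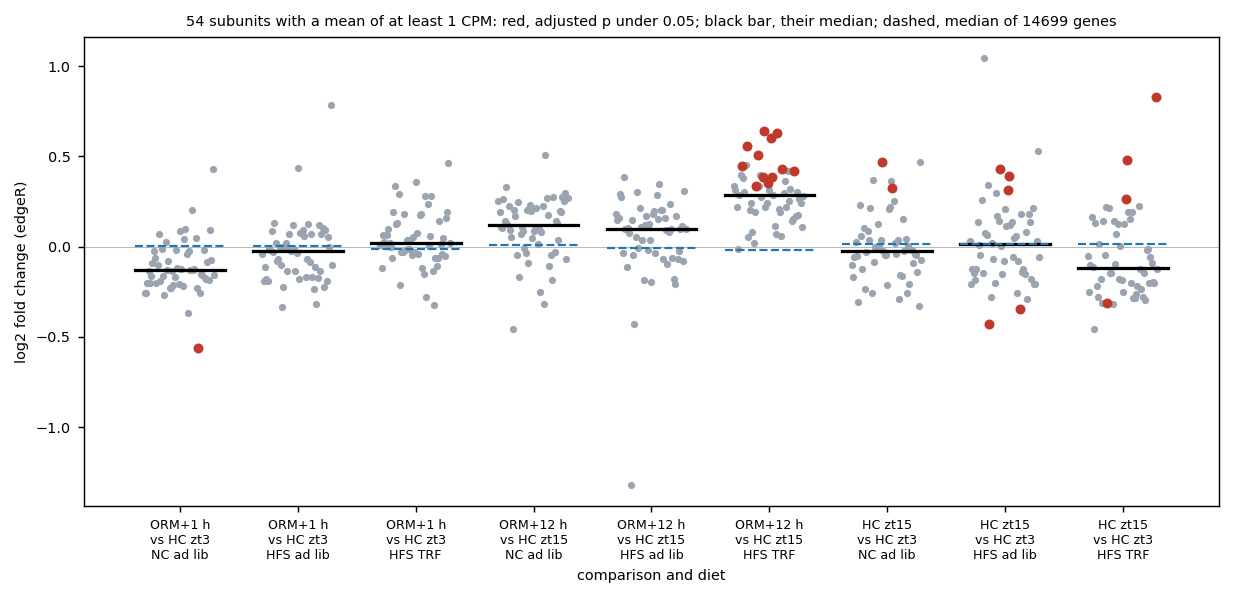
Log2 fold change (edgeR) of the 54 members with a mean of at least 1 CPM in the 9 comparisons of training and time of day; red points were called, black bars are the members' median and dashed bars the median of 14699 genes. The members' median stands furthest from 0 at ORM+12 h on HFS TRF (0.29).

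Of 35 auxiliary subunits, 2 rose and 4 fell between zt3 and zt15 on NC ad lib, 3 rose and 2 fell on HFS ad lib, and 3 rose and 4 fell on HFS TRF, beside 11.7%, 10.4% and 14.2% of all genes called in either direction. Kcnab1, a beta subunit of Kv1 channels, fell on all 3 diets (-0.41 on NC ad lib, -0.37 on HFS ad lib and -0.30 on HFS TRF) and Ank2, which anchors channels, rose on all 3 (0.25, 0.26 and 0.32). Pex5l, which controls the trafficking of HCN channels, fell on NC ad lib (-0.36) and HFS TRF (-0.49). Fgf14 fell on HFS ad lib (-0.33) and HFS TRF (-0.27), and Kcne5 rose on NC ad lib (1.24) and HFS TRF (1.06). Among the other potassium channels called, Kcnj10 rose on NC ad lib (0.81) and HFS TRF (0.84). On NC ad lib Kcnj16 (1.14) and Kcnn3 (0.59) rose and Kcnk15 fell (-4.89, SE 1.48). Immediate early genes were also higher at zt15, among them Arc (1.14), Egr2 (1.32) and Fos (1.25) on HFS TRF. Those zt15 mice are also the home cage mice of the comparison at 12 h.

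Diets were last compared within each condition. No member was called in any of the 8 comparisons by edgeR or DESeq2. At an unadjusted p under 0.05 there were 2, 17, 9 and 7 members for HFS ad lib against NC ad lib at HC zt3, ORM+1 h, HC zt15 and ORM+12 h, where the 17 were all higher on HFS ad lib, and 1, 3, 7 and 4 for HFS TRF against HFS ad lib. The shares of all genes that follow are at the adjusted threshold and do not serve as a background for these counts. For HFS ad lib against NC ad lib, 0% of all genes were called at HC zt3 and at ORM+1 h, 0.063% at HC zt15 and 2.27% at ORM+12 h, and for HFS TRF against HFS ad lib 0% at HC zt3, ORM+1 h and HC zt15 and 0.00664% at ORM+12 h. For HFS TRF against HFS ad lib the smallest unadjusted p belonged to Hcn3, higher on HFS TRF, at ORM+12 h (0.46, adjusted p = 0.358 by edgeR). Kcnq5 was higher on HFS ad lib than on NC ad lib at ORM+1 h with no overlap (111 ± 3.86 against 90.3 ± 11.0 CPM, adjusted p = 0.496 by edgeR). The smallest in 5 other comparisons were Kcnq3 at HC zt3 (0.25 for HFS ad lib against NC ad lib and -0.22 for HFS TRF against HFS ad lib), Kcns3 at ORM+1 h (-0.26, HFS TRF against HFS ad lib, no overlap), Scn1a at HC zt15 (0.27, HFS ad lib against NC ad lib) and the scarce Scn11a at ORM+12 h.

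The interactions at ORM+1 h and between zt15 and zt3 also called 0 members and 0% of all genes. Kcnh7 came closest among the interactions, with a change 12 h after training that was 0.57 lower on the log2 scale on HFS ad lib than on NC ad lib (log2 value -0.57, adjusted p = 0.0873 by edgeR). Kcnh4 had 1.67 in the interaction at 12 h of HFS TRF against HFS ad lib (adjusted p = 0.149 by edgeR). Scn2b had 0.25 and -0.27 in the interactions of zt15 against zt3, and Scn11a and Kcna7, which led those at 1 h, were near the floor.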

How the data were processed

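Hippocampal pS6-TRAP libraries of 71 mice were made with a stranded kit and sequenced as paired reads of 50 bp. Per the labels and the study's methods the authors trimmed reads with Trim Galore 0.6.7 and cutadapt 3.4, aligned them to GRCm39 with HISAT2 2.2.0 and counted reads of unique transcripts per gene with featureCounts (Subread 2.0.3). The deposited values are raw counts; the strand setting and whether both mates were counted are not given in the sources used here. Of counts from 1 to 12, 79.9% were even. All genes overlapping a member lie on the opposite strand, so that without strand reads of Hcn3 and Pklr, for example, could not be told apart. The same holds for Kcng2 and Slc66a2 and for Kcnh7 and Gca.

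From these counts, genes with at least 10 counts in total were fitted with edgeR 4.0.16 (TMM, quasi-likelihood test) in R 4.3.3 as 1 model of 12 groups, and p was adjusted by Benjamini-Hochberg over 30141 genes in each of 23 comparisons, with a call at an adjusted p under 0.05. The study's methods name DESeq2 and 73 samples. DESeq2 1.42.0, other filters and scaling, a replicate block, a model of only the groups compared and each mouse left out were alternatives, and 5 more were chosen after seeing the data (choroid plexus and thalamus covariates, a GC offset, protein-coding genes alone, and counts halved). The members and lists were chosen with earlier results of these data known. For training and time of day the members named are those called, up to 12, and, on a diet with fewer than 4 calls, the 2 higher and 2 lower members with the smallest unadjusted p; for the other comparisons they are those called or the 1 with the smallest unadjusted p. Some members are not reported here and enter the counts alone. The fit was tested on simulated data for ORM+12 h against HC zt15 on HFS TRF. The edgeR test found 21 of 100 changes of log2 size 0.35 and 65 of 100 of size 0.6, with 2 false calls. Changes of these sizes can therefore go uncalled. The simulated counts were drawn gene by gene with few genes changed, and without spread shared between genes, such as that of tissue or cage. Neither the share found nor the number of false calls need hold for these data. The p-values rest on the spread between mice of a group, and nothing states that these came from several cages. If a group was 1 cage, that spread leaves out the spread between cages, and cage and group cannot be told apart.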

Additional observations from a re-analysis of the deposited data

Results flagged for a closer look

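Of 39 sets of a named member in a group, 3 held a mouse far from the rest, by the gap to its nearest neighbour over the range of the group, where chance flags about 1 in 20 groups. In HFS TRF HC zt15, Kcna6 was low in replicate 1 at 46.8 CPM, with the next mouse at 53.9 CPM. In the same group replicate 3 was high for Kcnd3, at 59.3 CPM against 53.8 CPM. In HFS ad lib HC zt3, Kcna4 was high in replicate 1, at 45.6 CPM against 36.4 CPM. The first 2 belong to the home cage group of the comparison in which these genes rose 12 h after training on HFS TRF.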

How the results depend on the processing

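The number of members called depended on the model. For ORM+1 h on NC ad lib, 1 in the report, there were 5 with the DESeq2 Wald test, 4 with filterByExpr, 5 with protein-coding genes alone, 2 with the replicate block, 4 with only the groups compared and 1 to 3 with a mouse left out. On HFS ad lib, 0 became 1 with DESeq2, with protein-coding genes and with the choroid plexus covariate, and 0 to 1 with a mouse left out, and on HFS TRF 0 became 1 with only the groups compared. For ORM+12 h on NC ad lib, 0 became 1 with DESeq2, filterByExpr and the GC offset (0 to 1 with a mouse left out), and on HFS ad lib 1 with DESeq2 (0 to 4). On HFS TRF, 12 became 20 with DESeq2 and 4 with the choroid plexus covariate, and ran from 0 to 17 with a mouse left out. For zt15 against zt3 on NC ad lib, 2 became 4 with DESeq2 and 1 with only the groups compared (0 to 5), on HFS ad lib 6 ran from 3 to 7 with a mouse left out, and on HFS TRF 4 became 2 with at least 1 count and 7 with filterByExpr, protein-coding genes and only the groups compared (1 to 6). HFS ad lib against NC ad lib gave 3 at ORM+1 h and 1 at ORM+12 h with the replicate block within condition, and the interaction at 12 h 0 to 1. The shares of all genes called in these fits are not given, and the cause was not tested. Same-numbered mice did not deviate together in every pair in any comparison, so the numbers were not taken as pairs.

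Changes of sign were near 0 and uncalled, at ORM+12 h. Kcna6, ORM+12 h vs HC zt15, HFS ad lib, was 0.0027 with filterByExpr, 0.011 with the choroid plexus and 0.023 with the thalamus covariate. With a mouse left out, ranges crossed 0 on NC ad lib for Kcnh3, ORM+12 h vs HC zt15, NC ad lib (-0.0070 to 0.17), Hcn3, ORM+12 h vs HC zt15, NC ad lib (-0.091 to 0.14), Kcna6, ORM+12 h vs HC zt15, NC ad lib (-0.0052 to 0.17), Kcnc4, ORM+12 h vs HC zt15, NC ad lib (-0.20 to 0.027) and Kcnd3, ORM+12 h vs HC zt15, NC ad lib (-0.026 to 0.11), and on HFS ad lib for Hcn3, ORM+12 h vs HC zt15, HFS ad lib (-0.0082 to 0.15), Kcna6 (-0.052 to 0.045) and Kcnd3, ORM+12 h vs HC zt15, HFS ad lib (-0.031 to 0.095).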
